A study of Mus musculus with 12 samples.

Results

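In mice with a mutated Tyk2 gene, NK cells from transplanted tumours were compared with CD8 T cells from the same tumour model. Of the 12 libraries measured, 8 were labelled as mutant and were used here, which gave 4 NK libraries (2 NK KO and 2 NK KE) against 4 CD8 libraries (2 CD8 KO and 2 CD8 KE). The other 4 libraries were wild type (WT), 2 of each cell type, and are given where mutants are set beside WT mice. KO libraries came from Tyk2-/- mice, which lack the TYK2 protein. KE libraries came from mice whose TYK2 carries a point mutation that abolishes its kinase activity. All mice were on a C57BL/6N background, were matched for sex and age at 6 to 12 weeks, and carried subcutaneous grafts of MC38, a mouse colon adenocarcinoma line, with no further treatment. Tumours were taken after 8 to 10 days, leukocytes were enriched with beads against CD45, and 300 cells per library were sorted as NK cells (CD45+, CD3ε-, NK1.1+) or as CD8 T cells (CD45+, CD3ε+, CD8a+). Both Tyk2 alleles are carried in the germ line, so the other host cells of the tumour were mutant as well. The sources used here do not state whether the 2 libraries of a group came from separate mice or pools, so the p-values measure the spread between these libraries, part of which may be technical.

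NK cells recognise target cells through receptors that are encoded in the germ line, many of them in a cluster on chromosome 6, and pass the signal on through small adaptor proteins with tyrosine motifs. CD8 T cells instead use a rearranged T cell receptor that signals through the CD3 chains, and in tumours they acquire inhibitory receptors such as PD-1 after repeated antigen contact. Both kill with perforin and granzymes. TYK2 is a Janus kinase that transmits signals of type I interferons and of the interleukin-12 family in both cell types.

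Total counts lay between 10378761 and 14732882 per library, and 12929 of the 21621 genes with a count in the 8 mutant libraries were abundant enough to be tested (mean normalized count of at least 10). Levels are given as CPM, counts scaled to a library total of 1000000 with TMM factors, and a count of 3, the most that a count of 0 allows at 95% confidence, corresponded to 0.219 to 0.276 CPM. The 4 values of each cell type are listed in the order KO 1, KO 2, KE 1, KE 2. Differences are log2 fold changes of NK over CD8 from edgeR's quasi-likelihood test with genotype as a block, so positive values mean higher in NK cells. A gene was called when its FDR (Benjamini-Hochberg over all genes tested) was under 0.05 and its absolute log2 fold change was at least 1. In bulk RNA, fewer expressing cells and less RNA per cell cannot be told apart.

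The targeted gene came first. Tyk2 lay at 55.7, 104, 119 and 81.5 CPM in the NK libraries and at 62.2, 74.2, 59.5 and 47.0 CPM in the CD8 libraries. KO and KE libraries overlapped in NK cells, while in CD8 T cells both KO libraries lay above both KE libraries, and WT libraries lay at 60.6 and 68.4 CPM in NK and 48.6 and 86.6 CPM in CD8 T cells. No group was without Tyk2 counts, so the counts per gene do not show which allele a library carries, and KO and KE stand for the labels throughout. Tyk2 did not pass the test between the lineages, with a log2 fold change of 0.59 (SE 0.35, FDR 0.505).

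The genes of the sort proteins bore out the cell type labels, and since the gates used these proteins they are a description and not a finding. Klrb1c, which encodes NK1.1, lay at 2130, 1549, 2241 and 1702 CPM in NK libraries and 2.46, 2.75, 1.42 and 5.08 CPM in CD8 libraries. Cd8a lay at 2.79, 4.49, 3.95 and 3.12 CPM in NK libraries and 4063, 2841, 3175 and 4108 CPM in CD8 libraries. Cd3e, a CD3 chain, was less cleanly separated, with 9.83, 51.5, 30.7 and 30.7 CPM in NK libraries against 1460, 1017, 586 and 1261 CPM in CD8 libraries, so that NK KO 1 was lowest and the other 3 NK libraries held at least 30.7 CPM. Ptprc, which encodes CD45, was at 2457, 2655, 3332 and 2579 CPM in NK libraries and 1899, 2025, 1839 and 1686 CPM in CD8 libraries, with a log2 fold change of 0.58 (SE 0.13, FDR 0.0494).

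Myeloid and class II transcripts were far higher in NK KO 1 than in the other 7 mutant libraries, and markers of some other cell types were present throughout. The summed level of 14 macrophage and monocyte genes, leaving out 2 adaptor genes that NK cells express too, was 8009 CPM in NK KO 1 against 223 to 646 CPM in the other 3 mutant NK libraries and 331 to 1024 CPM in the mutant CD8 libraries. With the adaptors included, the list of 16 summed to 4101 to 13350 CPM in NK and 349 to 1156 CPM in CD8 libraries. Of its 15 tested members 2 were called higher in NK cells (0.92% of all genes), the adaptors Tyrobp and Fcer1g. Lyz2, the lysozyme of myeloid cells, lay at 3342, 19.3, 14.1 and 93.4 CPM in NK libraries, and Apoe, a lipid carrier made by macrophages, at 1809, 1.99, 2.11 and 149 CPM. The dendritic cell list summed to 6080 CPM in NK KO 1, where class II genes and Cd74 carried it, against 118 to 424 CPM in the other NK libraries and 52.5 to 433 CPM in CD8 libraries, and none of the 6 tested was called. Xcr1, a chemokine receptor of cross-presenting dendritic cells in the same list, was lower in NK libraries, at 0.0774, 0.0736, 0 and 1.48 CPM in NK and 36.1, 35.9, 8.42 and 31.7 CPM in CD8 libraries, without overlap and without a call (log2 fold change -6.54, SE 1.81, FDR 0.123). Without NK KO 1, 70 genes were called higher in NK cells and 124 higher in CD8 T cells. These counts were 80 and 139 without NK KO 2, 72 and 113 without NK KE 1 and 67 and 120 without NK KE 2. The part of myeloid RNA in single results was otherwise not tested. No neutrophil marker was abundant enough to be tested, with a sum of at most 2.06 CPM. The CD4 T cell list summed to 0.551 to 12.1 CPM in NK and 0 to 33.9 CPM in CD8 libraries, and neither of its 2 tested members was called. Within it Cd4 was listed at 0 in 7 of the 8 libraries and at 1.24 CPM in NK KO 1, while Cd40lg, the CD40 ligand of activated T cells, lay at 0, 0, 0.459 and 0.0742 CPM in NK and 0, 26.2, 18.6 and 11.3 CPM in CD8 libraries (log2 fold change -7.45, SE 2.59, FDR 0.230). Of the B cell genes, Igkc, an immunoglobulin light chain, was called higher in CD8 T cells with 65.5, 30.6, 19.4 and 5.45 CPM against at most 0.0918 CPM in NK libraries, but the call was lost without 6 of the 8 libraries in turn (any but NK KE 1 and CD8 KE 2), and Ighm, the immunoglobulin μ heavy chain, did not pass the test, at 283 to 744 CPM in NK and 158 to 523 CPM in CD8 libraries. The 3 tumour epithelial and 2 stromal genes tested were not called either, though Pecam1, an endothelial adhesion molecule that leukocytes carry too, lay at 191, 144, 224 and 98.8 CPM in NK and 5.85, 34.5, 45.7 and 59.2 CPM in CD8 libraries, without overlap (log2 fold change 2.35, SE 0.59, FDR 0.0874).

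Across all genes tested, 119 of 12929 (0.92%) were called higher in mutant NK cells and 186 (1.44%) higher in mutant CD8 T cells. The median log2 fold change of the called genes was 3.6 in the NK direction and -6.64 in the CD8 direction, while the median over all genes tested was -0.00915. All 119 genes called in the NK direction had their 4 NK libraries above their 4 CD8 libraries, a pattern held by 608 genes tested (4.7%). Among the 186 called in the CD8 direction, 181 had 4 CD8 libraries above 4 NK libraries, against 852 genes tested (6.59%). Protein-coding genes made up 109 and 171 of the calls, T cell receptor variable or joining segments 3 and 7, and unnamed gene models 6 and 10. In 3 genes called in the NK direction the CD8 libraries held no count, and in 5 called in the CD8 direction the NK libraries held none.

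**Figure D1:**
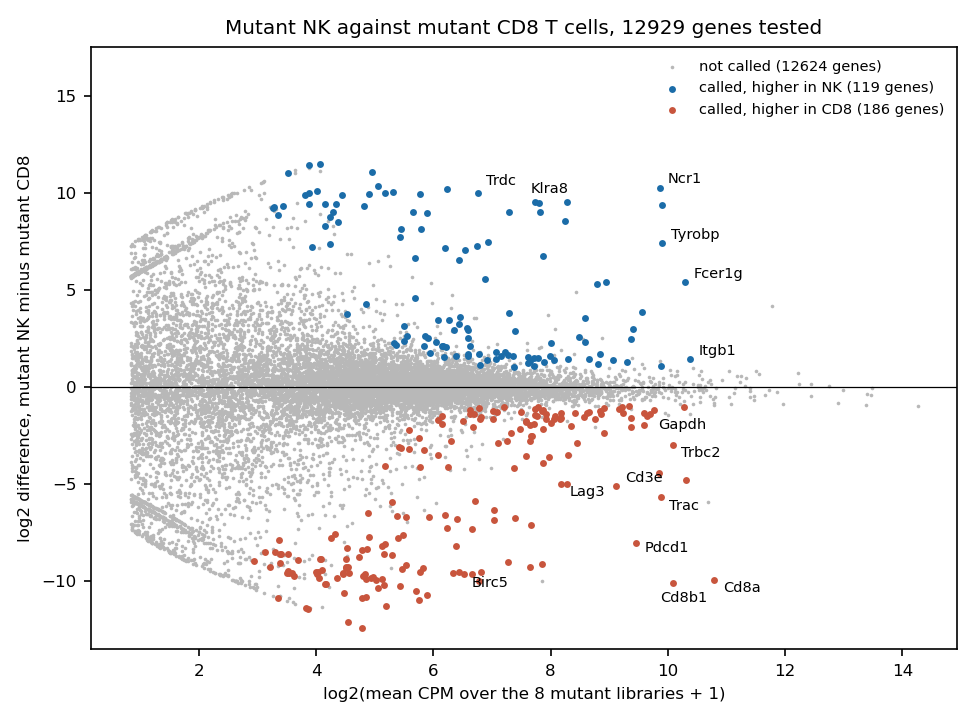
Log2 difference of mutant NK minus mutant CD8 T cells (y axis) against log2 of the mean CPM over the 8 mutant libraries plus 1 (x axis), 1 point per gene tested. The 119 genes called higher in NK (blue) and the 186 called higher in CD8 (red) are marked, and Ncr1 at 10.26, Cd8a at -9.93 and Cd8b1 at -10.12 combine a high level with a large difference.

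Chromosome 6, which holds the natural killer gene complex as well as Cd8a and the T cell receptor β locus, carried 25 of the 119 NK calls (21%) and 23 of the 186 CD8 calls (12.4%), compared with 5.53% of all genes tested. Within the complex, between Klrb1a and Klra1 (GRCm38, chromosome 6, 128609227 to 130386874), 40 genes were tested, with a median log2 fold change of 3.74. Of these, 15 were called higher in NK cells (0.92% of all genes) and 1 higher in CD8 T cells (1.44% of all genes). The 15 include Klrb1c, whose protein was used in the gate, and receptors that are counted again below.

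Receptors of the NKR-P1, NKG2 and natural cytotoxicity families formed the largest group in the NK direction. Of 17 tested, 10 were called higher in NK cells (0.92% of all genes) and 0 higher in CD8 T cells, with a median of 3.24, and the 10 include Klrb1c, whose protein was used in the gate. Ncr1 encodes NKp46, an activating receptor of NK cells, and lay at 2029, 1224, 1896 and 2276 CPM in NK libraries against 2.00, 1.75, 1.33 and 1.03 CPM in CD8 libraries. The 2 sets were far apart, and the log2 fold change was 10.26 (SE 0.35, FDR 8.69e-07). Klrb1f, of the NKR-P1 family, lay at 665, 434, 857 and 517 CPM against 0.538, 0.668, 1.75 and 0.515 CPM, a log2 fold change of 9.53 (SE 0.47, FDR 8.28e-06). Klrb1b, an inhibitory member that binds a Clec2 ligand, was at 351, 626, 395 and 314 CPM against 0.231, 0.584, 0.667 and 0.810 CPM, a log2 fold change of 9.52 (SE 0.47, FDR 8.28e-06). Klrb1c itself gave 9.36 (SE 0.44, FDR 7.63e-06) in the same test. None of these 4 genes overlapped between the cell types in any library.

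Some receptors of the same families were shared with CD8 T cells. Klre1, which pairs with KLRI1 and KLRI2, lay at 1107, 945, 1391 and 1007 CPM in NK and 171, 121, 225 and 338 CPM in CD8 libraries, a log2 fold change of 2.47 (SE 0.24, FDR 6.51e-04). Klri2 was at 896, 500.5, 1211 and 833 CPM against 7.31, 17.7, 30.0 and 44.4 CPM, with a log2 fold change of 5.30 (SE 0.41, FDR 1.98e-04). Klrk1, which encodes the activating receptor NKG2D, had the higher level in all 4 NK libraries, 1984, 1623, 2380 and 1712 CPM against 1164, 965, 894 and 1363 CPM, but its difference of 0.83 (SE 0.17, FDR 0.0406) was under the fold threshold. The inhibitory NKG2A gene Klrc1 stood at 522, 464, 629 and 430.5 CPM in NK and 801, 1018, 563 and 804 CPM in CD8 libraries and did not pass the test (log2 fold change -0.61, SE 0.20, FDR 0.206). Klrc2, the activating NKG2C chain, did pass it, with a log2 fold change of 3.24 (SE 0.50, FDR 0.00983). Fcgr3, the low-affinity IgG receptor CD16 of NK and myeloid cells, was also called, at 250.2, 194, 270.3 and 196 CPM against 0.615, 7.34, 0.500 and 11.3 CPM, but not without NK KO 1, NK KE 1 or NK KE 2. Cd244a, which encodes the receptor 2B4, was 4 of 4 higher in NK libraries and missed the FDR threshold (log2 fold change 2.48, SE 0.59, FDR 0.0708).

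Ly49 receptors, lectins that bind MHC class I, were more abundant in every NK library as a group, with a summed level of 2193 to 2705 CPM in NK and 4.34 to 273 CPM in CD8 libraries. Of 10 tested, 4 were called higher in NK cells (0.92% of all genes) and the median was 5.77. Klra8, which encodes the activating receptor Ly49H, lay at 469, 554, 417 and 338 CPM against 0.615, 0.668, 0.917 and 0.295 CPM, a log2 fold change of 9.47 (SE 0.38, FDR 3.07e-06). Klra4, the Ly49D gene, was at 653, 397, 709 and 654 CPM against 0.923, 0.668, 1.00 and 4.86 CPM, a log2 fold change of 8.54 (SE 0.61, FDR 1.19e-04), and CD8 KE 2 was the highest CD8 library. The same library was high for Klra9, at 448, 398, 516 and 472 CPM in NK against 0.769, 0.751, 0.917 and 34.3 CPM in CD8 libraries, and for Klra1, at 0.0769, 0.167, 0.417 and 7.95 CPM in CD8 libraries. The calls of Klra9 and Klra1 held only without CD8 KE 2, or for Klra9 also without CD8 KE 1, when libraries were left out in turn. Klra7, the Ly49G gene, differed more between the CD8 libraries, 5.15, 1.17, 87.4 and 168 CPM against 682, 662, 744 and 422 CPM in NK libraries, and was not called (log2 fold change 4.89, SE 1.30, FDR 0.109). Ly49 genes are close copies of each other, and reads that align to several of them were not counted, so the division among members is uncertain.

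Adaptors and kinases that act below these receptors were called in the NK direction too. Of 8 tested, 5 were called higher in NK cells (0.92% of all genes), 0 higher in CD8 T cells, and the median was 6.39. Tyrobp, which encodes the adaptor DAP12, lay at 2438, 1665, 1599 and 1925 CPM in NK against 8.23, 13.2, 8.26 and 15.6 CPM in CD8 libraries, a log2 fold change of 7.41 (SE 0.32, FDR 3.90e-06). Fcer1g, the common Fc receptor γ chain, was at 2901, 2303, 2278 and 2313 CPM against 59.6, 4.92, 124 and 93.4 CPM, a log2 fold change of 5.38 (SE 0.77, FDR 0.00654), with CD8 KO 2 far below the other CD8 libraries. The kinase gene Syk, which reads the motifs of both adaptors, lay at 45.2, 92.8, 81.7 and 60.7 CPM in NK libraries and had 3 counts in all 4 CD8 libraries together, a ratio of 1177 (95% interval 402 to 5708). Sh2d1b1, which encodes the SLAM receptor adaptor EAT-2, was at 144, 77.3, 109 and 99.0 CPM in NK libraries and had 5 counts over the CD8 libraries, a ratio of 1078 (95% interval 462 to 3320). Ratios of this kind carry exact counting intervals only, which do not cover the spread between libraries. Plcg2, a phospholipase downstream of SYK, was at 136, 108, 43.4 and 108 CPM against 0.0769, 0.167, 0.334 and 0.147 CPM. In contrast, Cd247, the ζ chain used by both CD3 and NKp46, was at 284, 124, 198 and 275 CPM in NK and 568, 307, 391 and 513 CPM in CD8 libraries, with all CD8 values above all NK values and no call (log2 fold change -1, SE 0.30, FDR 0.153). Hcst, the NKG2D adaptor DAP10, did not pass the test (log2 fold change -0.36, SE 0.19, FDR 0.442), and neither did the SLAM adaptor gene Sh2d1a (log2 fold change 0.37, SE 0.27, FDR 0.615).

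The 250 bases before the start of Ncr1 and of Sh2d1b1 are shown because both genes were at or near 0 in CD8 T cells and high in NK cells. The sequences are RefSeq's for GRCm38.p6, from chr7:4337465-4337714 and chr1:170277068-170277317, both on the plus strand. Capitals mark the letters TGTGGT (a core that RUNX factors bind) and TCACAC (a core that T-box factors such as T-bet and Eomes bind) on either strand.
Ncr1: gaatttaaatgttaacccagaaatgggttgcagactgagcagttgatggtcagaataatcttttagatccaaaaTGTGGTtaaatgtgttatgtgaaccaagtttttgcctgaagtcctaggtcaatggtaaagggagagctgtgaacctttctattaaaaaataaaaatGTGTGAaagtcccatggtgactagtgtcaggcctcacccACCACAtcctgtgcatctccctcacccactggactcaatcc
Sh2d1b1: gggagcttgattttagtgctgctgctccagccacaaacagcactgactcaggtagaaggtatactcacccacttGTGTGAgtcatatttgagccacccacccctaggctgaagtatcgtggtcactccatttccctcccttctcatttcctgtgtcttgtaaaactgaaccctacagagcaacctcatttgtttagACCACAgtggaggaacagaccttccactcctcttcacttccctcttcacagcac
Ncr1 held the RUNX letters 176 and 41 bases before its start and the T-box letters at 80 bases, and Sh2d1b1 held them at 54 and 176 bases. Among the 86 genes called higher in NK cells that had a promoter entry, 13 (15.1%) held the RUNX letters and 11 (12.8%) the T-box letters. The shares were 14.2% and 12.1% of the 141 promoters of genes called higher in CD8 T cells, and 11.3% and 9.14% of all 9154 promoters of tested genes. Such short matches are a description and not a binding site.

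In the CD8 direction most CD3 and T cell receptor chains were called. Of 9 tested, 7 were called higher in CD8 T cells (1.44% of all genes) and 0 higher in NK cells, and their summed level was 13300 to 18740 CPM in CD8 against 1113 to 1349 CPM in NK libraries. The count and the sum include Cd8a and Cd3e, whose proteins were used in the gate. Cd8b1, the β chain of CD8, was not part of the gate and lay at 2.32, 1.99, 2.02 and 1.41 CPM in NK and 2384, 1945, 2170 and 2186 CPM in CD8 libraries, the smallest FDR of all genes, with a log2 fold change of -10.12 (SE 0.22, FDR 3.83e-08). Cd3g was at 17.3, 116, 54.8 and 170.2 CPM against 2741, 2073, 2068 and 2893 CPM (log2 fold change -4.80, SE 0.62, FDR 0.00387), and Cd3d at 16, 120, 77.2 and 112 CPM against 1748, 1554, 1734 and 2011 CPM (log2 fold change -4.43, SE 0.54, FDR 0.00276). In both genes, as in Cd3e, NK KO 1 was the lowest NK library. Trac, the constant region of the receptor α chain, lay at 40.1, 24.0, 56.1 and 20.0 CPM against 2845, 1412, 1275 and 1872 CPM, a log2 fold change of -5.69 (SE 0.44, FDR 1.98e-04). The constant regions of the β chain behaved differently from each other. Trbc2 was at 278, 195, 189 and 296 CPM in NK against 2564, 1863, 1720 and 1558 CPM in CD8 libraries (log2 fold change -2.97, SE 0.22, FDR 1.29e-04), whereas Trbc1 was at 586, 539, 501 and 441 CPM in NK and 371, 289, 235 and 1106 CPM in CD8 libraries, with 3 CD8 libraries below every NK library and CD8 KE 2 above them. The 2 genes are near-identical in their coding sequence and reads that align to both were not counted, so their values are uncertain.

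**Figure D2:**
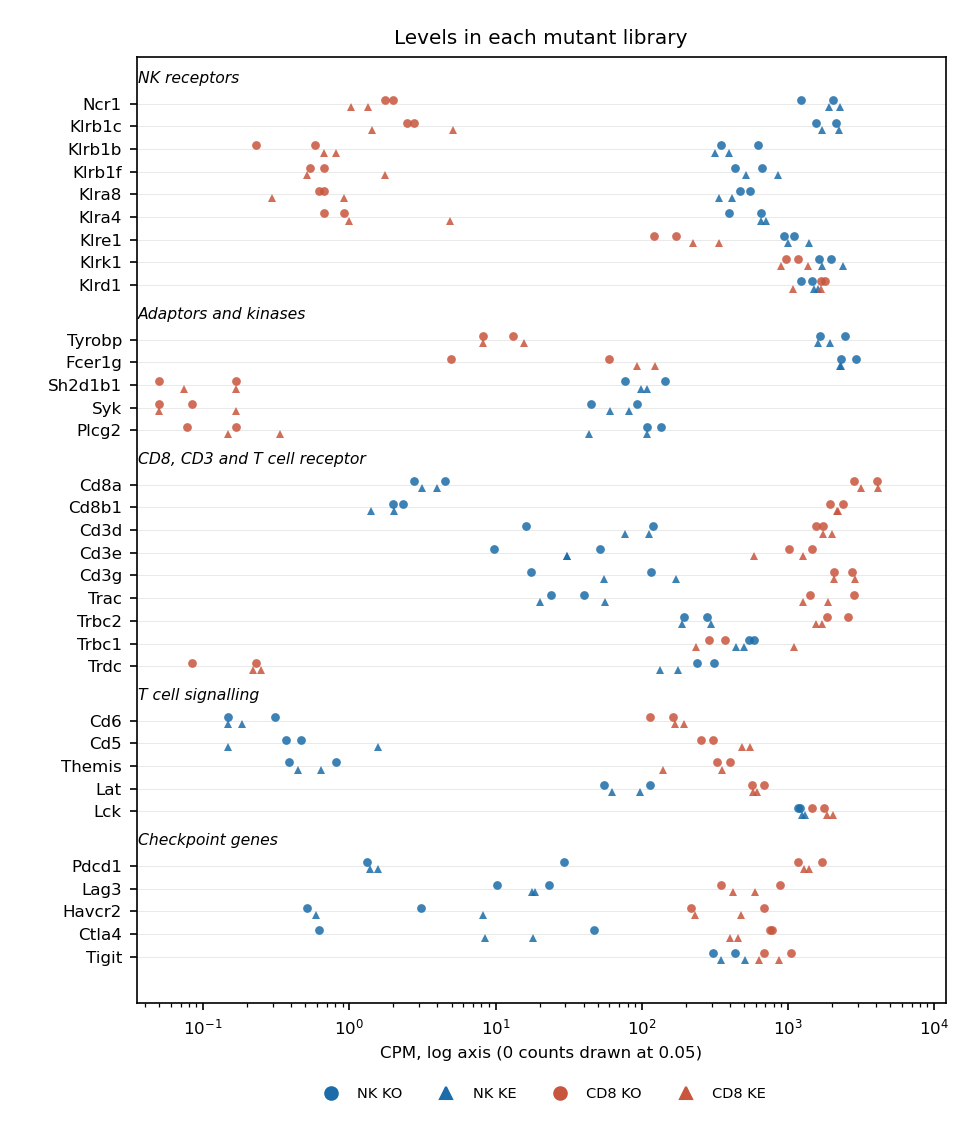
CPM on a log axis (x axis) of 33 genes (y axis) in each of the 8 mutant libraries, with circles for KO, triangles for KE, blue for NK and red for CD8, and counts of 0 drawn at 0.05. NK receptors and adaptors such as Ncr1 and Tyrobp sit right in NK and left in CD8 libraries, the CD8, CD3, Trac and Trbc2 genes the other way round, and Klrd1, Klrk1, Trbc1 and Lck lie close together in both cell types.

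Signalling below the T cell receptor was split. Of 20 genes tested, 7 were called higher in CD8 T cells (1.44% of all genes) and 0 higher in NK cells, and the median was -1.5. Cd6 and Cd5, scavenger-type receptors that tune T cell receptor signals, were almost absent from NK cells. Cd6 lay at 0.310, 0.147, 0.184 and 0.148 CPM in NK against 163, 113, 195 and 169 CPM in CD8 libraries (log2 fold change -9.56, SE 0.48, FDR 8.28e-06), and Cd5 at 0.465, 0.368, 1.56 and 0.148 CPM against 308, 255, 482 and 546 CPM (log2 fold change -9.29, SE 0.60, FDR 5.71e-05). Themis, a T cell signalling protein needed in the thymus, was at 0.387, 0.809, 0.643 and 0.445 CPM against 326, 401, 355 and 139 CPM, a log2 fold change of -9 (SE 0.48, FDR 1.39e-05). The scaffold gene Lat was present in both, at 114, 55.3, 62.5 and 97.2 CPM in NK and 689, 570.4, 579 and 609.6 CPM in CD8 libraries, and was called with -2.88 (SE 0.26, FDR 4.62e-04). So were the costimulatory receptor genes Icos (log2 fold change -2.35, SE 0.28, FDR 0.00214), Cd28 (log2 fold change -2.01, SE 0.27, FDR 0.00428) and Cd27 (log2 fold change -1.39, SE 0.24, FDR 0.0180), of which Cd27 lost its call without NK KO 1 or NK KE 1. By contrast Lck, the kinase that starts the cascade in T cells, was at 1167, 1207, 1256 and 1312 CPM against 1758, 1454, 1855 and 2020 CPM, higher in every CD8 library by a small margin (log2 fold change -0.50, SE 0.11, FDR 0.0498). Ptpn22, a phosphatase that dampens the same cascade, overlapped between the cell types and was not called (log2 fold change -0.50, SE 0.13, FDR 0.0992).

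For Cd8a and Cd3e the same 250 bases are shown as for the NK genes. They come from RefSeq's GRCm38.p6, chr6:71373177-71373426 on the plus strand and chr9:45009612-45009861 on the minus strand. Capitals mark the ETS letters CAGGAAG on either strand, and the letters CTTTGA (TCF and LEF factors) were searched as well.
Cd8a: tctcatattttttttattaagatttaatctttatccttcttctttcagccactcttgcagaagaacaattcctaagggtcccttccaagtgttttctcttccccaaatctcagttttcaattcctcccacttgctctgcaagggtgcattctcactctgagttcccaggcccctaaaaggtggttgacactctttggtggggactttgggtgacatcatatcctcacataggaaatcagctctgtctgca
Cd3e: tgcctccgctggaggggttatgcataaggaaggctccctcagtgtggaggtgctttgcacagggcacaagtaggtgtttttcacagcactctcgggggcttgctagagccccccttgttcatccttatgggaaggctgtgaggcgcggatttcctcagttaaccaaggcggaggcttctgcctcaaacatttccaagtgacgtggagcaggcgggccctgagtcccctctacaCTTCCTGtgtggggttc
Cd3e held 1 ETS match, 17 bases before its start, and the Cd8a window held none of the 7 sets of letters searched. ETS letters stood in 15 of 141 promoters of genes called higher in CD8 T cells (10.6%), 8 of 86 called higher in NK cells (9.3%) and 10.4% of all tested. The TCF and LEF letters stood in 13.5%, 8.14% and 10.9%.

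Lineage transcription factors were called in both directions, beside 0.92% (NK) and 1.44% (CD8) of all genes. Of 12 factors of NK and innate lymphoid cells, 1 was called higher in NK cells (0.92% of all genes), and of 12 T cell factors tested 1 was called in each direction, with medians of 0.50 and 0.56. Irf8, an interferon regulatory factor, lay at 623, 856, 606 and 969 CPM in NK and 362, 170.2, 289 and 387 CPM in CD8 libraries (log2 fold change 1.37, SE 0.27, FDR 0.0322). Tox, a factor of exhausted T cells, was at 26.7, 15.7, 63.8 and 28.6 CPM against 434, 127, 192 and 204 CPM (log2 fold change -2.89, SE 0.54, FDR 0.0248). Satb1, a chromatin organiser, was higher in NK cells with 1.5 (SE 0.29, FDR 0.0296). The calls of Irf8 and of Satb1 each held in 2 of the 8 fits that left out 1 library, and that of Tox in 4. Eomes, which with T-bet specifies NK cells, was at 156, 209, 142 and 244 CPM against 1.69, 29.4, 4.67 and 29.0 CPM, higher in all 4 NK libraries and short of the threshold (log2 fold change 3.56, SE 0.84, FDR 0.0657). Tbx21, the T-bet gene, was at 209, 295, 278 and 268 CPM against 233, 119, 108 and 169.5 CPM (log2 fold change 0.77, SE 0.28, FDR 0.250). Irf4, a factor induced by T cell receptor signals and outside both lists, stood out in the CD8 direction, at 145, 132, 64.5 and 127 CPM in CD8 libraries with 3 counts in all NK libraries together, a ratio of 2003 (95% interval 685 to 9718).

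Of 16 granule genes of the killing machinery tested, 1 was called, higher in CD8 T cells, beside 1.44% of all genes, and the median was -0.10. Gzmk, the granzyme of that call, lay at 9.91, 22.4, 25.1 and 9.87 CPM in NK and 445, 307, 214 and 284 CPM in CD8 libraries, a log2 fold change of -4.17 (SE 0.43, FDR 0.00102). Gzma, a granzyme with trypsin-like activity, lay at 6921, 7203, 6530 and 5687 CPM in the NK libraries and at 17.2, 1131, 21.4 and 475 CPM in the CD8 libraries, where CD8 KO 1 and CD8 KE 1 were far below the other two, and with this spread Gzma was not called (log2 fold change 4.14, SE 1.29, FDR 0.196). Nkg7, a granule membrane protein, was at 4710, 4809, 4306 and 4729 CPM against 7620, 5125, 5665 and 7382 CPM (log2 fold change -0.46, SE 0.14, FDR 0.155). Gzmb lay at 1779, 1337, 888 and 1944 CPM in NK and 2591, 2659, 1055 and 4972 CPM in CD8 libraries, with overlapping values (log2 fold change -0.90, SE 0.42, FDR 0.378).

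Of 18 secreted cytokines, chemokines and death ligands tested, 3 were called higher in CD8 T cells (1.44% of all genes) and 0 higher in NK cells, with a median of -0.97. Csf1, the macrophage growth factor, lay at 29.7, 46.9, 73.8 and 73.7 CPM in CD8 libraries with 1 count in all NK libraries together, a ratio of 2853 (95% interval 512 to 112700). Ltb, lymphotoxin β, was at 484, 448, 235 and 495 CPM in NK and 1288, 1199, 1087 and 1143 CPM in CD8 libraries (log2 fold change -1.50, SE 0.21, FDR 0.00650). Ccl1, a ligand of CCR8, was at 0.154, 53.1, 802 and 34.1 CPM in CD8 libraries, with CD8 KO 1 at the level of the NK libraries, and its call remained only in the fit without CD8 KO 1. The chemokine genes Ccl5 (log2 fold change -0.61, SE 0.21, FDR 0.233), Ccl4 (log2 fold change -1.33, SE 0.66, FDR 0.413) and Xcl1 (log2 fold change 1.16, SE 0.49, FDR 0.336) did not pass the test.

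Checkpoint and exhaustion genes were called in the CD8 direction as well. Of 16 tested, 8 were called higher in CD8 T cells (1.44% of all genes) and 0 higher in NK cells, and the median was -2.53. Lag3, an inhibitory receptor for MHC class II, lay at 10.3, 23.2, 17.7 and 18.7 CPM in NK and 879, 347, 419 and 597 CPM in CD8 libraries, a log2 fold change of -4.98 (SE 0.40, FDR 2.32e-04). Pdcd1, which encodes PD-1, was at 29.3, 1.32, 1.38 and 1.56 CPM against 1718, 1163, 1402 and 1296 CPM, a log2 fold change of -8.06 (SE 1.12, FDR 0.00580). Among the NK libraries only NK KO 1, the one with myeloid transcripts, held more than 1.56 CPM of Pdcd1, and the part of those transcripts was not tested. Havcr2, the TIM-3 gene, was at 3.10, 0.515, 8.27 and 0.593 CPM against 685, 216, 231 and 479.7 CPM (log2 fold change -7.11, SE 1.00, FDR 0.00617). Cd200, a ligand that inhibits myeloid cells, had no count in any NK library and lay at 97.2, 26.8, 27.4 and 28.2 CPM in CD8 libraries, at least 163-fold higher, and its FDR rose to 0.0862 without CD8 KO 1. Ctla4 was at 0.619, 47.1, 8.45 and 18.1 CPM in NK and 755, 781, 404 and 453 CPM in CD8 libraries (log2 fold change -4.99, SE 0.96, FDR 0.0283), a call that held in 2 of the 8 fits without 1 library (those without NK KO 1 or NK KO 2). Tigit was measured in both cell types, at 432, 308, 509.5 and 346 CPM and 1047, 683, 633 and 869 CPM, and with -1 (SE 0.22, FDR 0.0534) it was not called. Tnfrsf9, the costimulatory receptor 4-1BB, was likewise not called (log2 fold change -1.43, SE 0.32, FDR 0.0553). Leaving out 1 library at a time gave 4 to 7 calls in this list.

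Cell cycle genes were the largest group in the CD8 direction. Of 38 tested, 17 were called higher in CD8 T cells and 0 higher in NK cells, 28 had 4 CD8 libraries above 4 NK libraries (beside 1.44% called and 6.59% without overlap among all genes), and the median was -4.95, or -4.39 with 2 genes set to the lower bound that their counts of 0 allow. The summed level was 3754 to 6691 CPM in CD8 and 1869 to 2641 CPM in NK libraries, of which the D-type cyclin genes below made up a large part in NK cells. Birc5, which encodes survivin of the mitotic passenger complex, lay at 0.465, 0.294, 0.0918 and 0.0742 CPM in NK against 182, 299.6, 161 and 80.0 CPM in CD8 libraries, a log2 fold change of -9.64 (SE 0.53, FDR 1.56e-05). Ccna2, the cyclin A gene, was at 0.465, 0.221, 1.47 and 0.148 CPM against 217, 176, 176 and 91.2 CPM (log2 fold change -8.19, SE 0.81, FDR 7.92e-04). Ccnb2, a mitotic cyclin gene, was at 167, 151, 27.9 and 83.7 CPM in CD8 libraries with 6 counts over the NK libraries, a ratio of 914 (95% interval 419.7 to 2492). Stmn1, which destabilises microtubules, was at 3.72, 5.44, 4.96 and 8.98 CPM against 60.5, 162, 102 and 80.6 CPM (log2 fold change -4.14, SE 0.53, FDR 0.00349), and Cenpa, the centromeric histone, at 20.1, 49.1, 10.3 and 36.6 CPM against 559.8, 369, 285 and 198 CPM (log2 fold change -3.54, SE 0.47, FDR 0.00410). Cdc20, an activator of the anaphase promoting complex, was at 105, 14.7, 31.3 and 23.4 CPM in CD8 libraries with 3 counts over the NK libraries, a ratio of 751 (95% interval 257 to 3646), and its FDR rose to 0.0633 without CD8 KO 1, the highest library. In CD8 T cells, CD8 KE 2 was the lowest library for Birc5, Ccna2, Ccnb1 and Cenpa. The lowest was CD8 KE 1 for Ccnb2, CD8 KO 1 for Stmn1 and CD8 KO 2 for Cdc20. The D-type cyclin genes, which are induced by growth signals before DNA replication, did not follow, since Ccnd2 was at 1012, 870.4, 1045 and 1156 CPM in NK and 629, 456, 482 and 535 CPM in CD8 libraries, higher in every NK library and just under the fold threshold (log2 fold change 0.97, SE 0.15, FDR 0.0109). Ccnd3 was not called (log2 fold change 0.59, SE 0.28, FDR 0.383). Leaving out 1 library at a time gave 11 to 17 calls in this list.

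**Figure D3:**
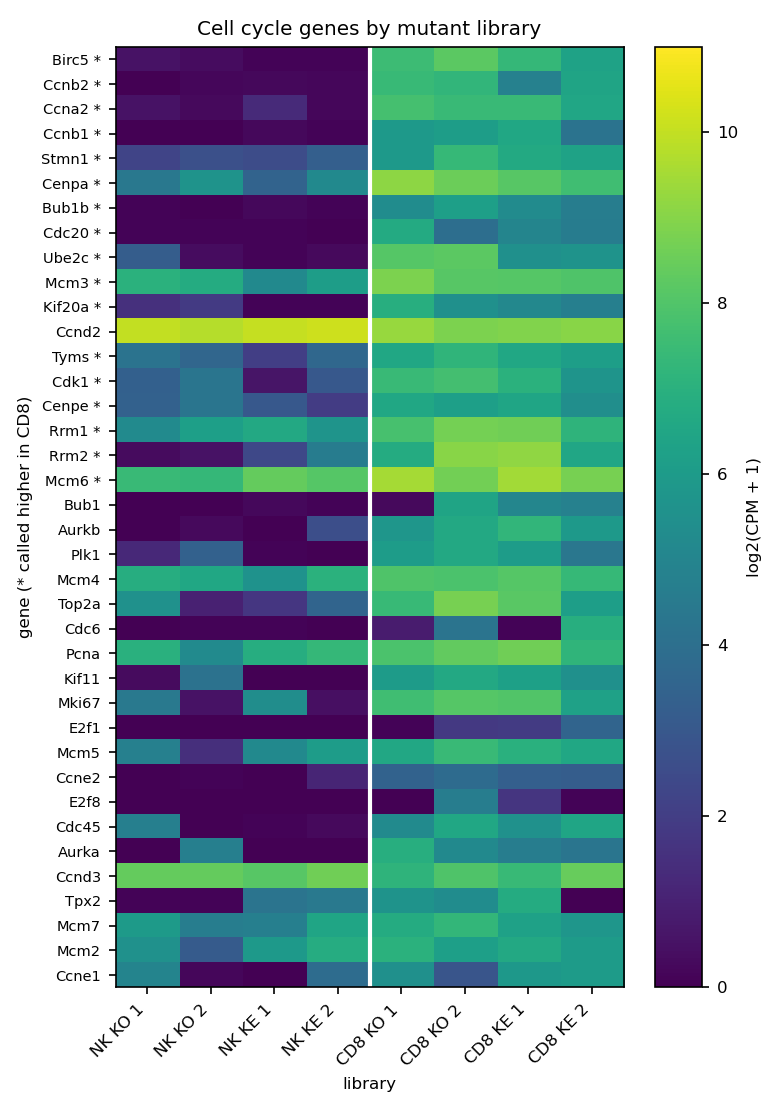
Log2(CPM + 1) as colour for the 38 cell cycle genes tested (y axis, ordered by p, called genes starred) in the 8 mutant libraries (x axis), NK left and CD8 right of the white line. Most genes are dark in the 4 NK and bright in the 4 CD8 libraries, while Ccnd2 and Ccnd3 are bright in all 8.

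The 250 bases before Ccnb2 and Cdc20 are shown because these genes were both called and because cell cycle promoters are known for CCAAT boxes and for the CHR element. They come from RefSeq's GRCm38.p6, chr9:70421555-70421804 and chr4:118437344-118437593, both on the minus strand. Capitals mark CCAAT and the CHR letters TTTGAA on either strand, and CTTTGA and TTTGAA can overlap by 5 letters.
Ccnb2: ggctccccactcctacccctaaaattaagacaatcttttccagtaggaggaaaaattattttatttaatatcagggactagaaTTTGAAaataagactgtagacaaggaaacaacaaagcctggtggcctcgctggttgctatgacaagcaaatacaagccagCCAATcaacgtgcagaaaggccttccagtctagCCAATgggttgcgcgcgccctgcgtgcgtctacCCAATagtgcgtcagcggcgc
Cdc20: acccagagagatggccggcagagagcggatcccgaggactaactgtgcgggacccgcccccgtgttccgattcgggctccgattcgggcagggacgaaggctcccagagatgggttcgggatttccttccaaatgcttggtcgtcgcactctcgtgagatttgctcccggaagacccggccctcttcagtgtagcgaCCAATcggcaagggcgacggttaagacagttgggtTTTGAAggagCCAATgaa
Ccnb2 held 3 CCAAT boxes (87, 54 and 21 bases before its start) and a CHR match at 167 bases, and Cdc20 held CCAAT at 53 and 8 bases and CHR letters at 18 bases. Of the 14 cell cycle genes called higher in CD8 T cells that had a promoter entry, 12 (85.7%) held CCAAT and 4 (28.6%) the CHR letters. Over all 30 tested cell cycle genes with an entry the shares were 80% and 33.3%, and over all tested promoters 37% and 10.9%. Among all genes called higher in CD8 T cells 44.7% held CCAAT, and among those called higher in NK cells 34.9%. The E2F letters GCGGGAA stood in 1 of the 14.

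Of 22 receptors for migration and adhesion tested, 6 were called higher in NK cells (0.92% of all genes) and 1 higher in CD8 T cells (1.44% of all genes), and the median was 0.53. S1pr5, a sphingosine phosphate receptor by which NK cells leave tissues, was at 55.2, 99.8, 24.8 and 61.3 CPM in NK libraries with 1 count in all CD8 libraries together, a ratio of 3145 (95% interval 564 to 124300). Ccr2, the receptor for CCL2, was at 1273, 726, 1536 and 1268 CPM against 151, 114, 104 and 249 CPM (log2 fold change 2.97, SE 0.30, FDR 9.23e-04). The integrin chains Itgb7 and Itgb1 were called with 2.57 (SE 0.31, FDR 0.00232) and 1.42 (SE 0.14, FDR 7.81e-04). Ccr7, which guides cells to lymph nodes, was the call in the CD8 direction, at 18.4, 132, 14.8 and 21.3 CPM in NK and 208, 670.4, 436 and 493 CPM in CD8 libraries (log2 fold change -3.59, SE 0.74, FDR 0.0394), with NK KO 2 the highest NK library, and it held in 2 of the 8 fits without 1 library. All 6 calls in the NK direction were made in each of the 8 such fits.

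Receptors and mediators of cytokine pathways, among them those in which TYK2 acts, are read against the 0.92% and 1.44% of all genes called in the NK and CD8 directions. Of 24 cytokine receptor genes tested, 2 were called higher in CD8 T cells (1.44% of all genes) and 0 higher in NK cells, with a median of -0.10. Il2ra, the α chain of the interleukin-2 receptor, lay at 0, 0.441, 3.12 and 5.86 CPM in NK and 36.5, 60.4, 90.2 and 109.7 CPM in CD8 libraries (log2 fold change -5.91, SE 1.10, FDR 0.0249), a call that held in 3 of 8 fits without 1 library, and Il27ra was called with -1.31 (SE 0.28, FDR 0.0480) but in 0 of those 8. Il2rb, the chain shared by the receptors for interleukins 2 and 15, was at 3997, 3383, 3693 and 3696 CPM in NK and 2460, 1520, 2009 and 2450 CPM in CD8 libraries, higher in every NK library and under the fold threshold (log2 fold change 0.83, SE 0.15, FDR 0.0250). Ifngr1, for interferon γ, showed the same pattern, at 2886, 2334, 3139 and 2291 CPM against 1530, 1528, 1534 and 1612 CPM (log2 fold change 0.80, SE 0.13, FDR 0.0109).

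Of the 10 Janus kinase and STAT genes tested, 1 was called, higher in NK cells (0.92% of all genes). Jak1, the partner of TYK2 at the type I interferon receptor, lay at 1053, 1579, 1251 and 1184 CPM in NK and 550.1, 616, 786 and 526 CPM in CD8 libraries (log2 fold change 1.05, SE 0.18, FDR 0.0172), close to the fold threshold, and the call held in 2 of the 8 fits without 1 library (those without NK KO 1 or CD8 KE 1). Stat4 (log2 fold change 0.42, SE 0.22, FDR 0.454) and Stat3 (log2 fold change -0.35, SE 0.22, FDR 0.526) did not pass the test. None of 17 feedback regulators tested, among them the SOCS and PIAS families, was called. Of 38 interferon-stimulated genes tested, 2 were called higher in NK cells (0.92% of all genes) and 0 higher in CD8 T cells, with a median of 0.07. Oasl2, an antiviral 2'-5' oligoadenylate synthetase-like gene, lay at 31.4, 39.4, 23.5 and 47.9 CPM in NK libraries with 4 counts over the CD8 libraries, a ratio of 458 (95% interval 179 to 1683). In WT libraries the same gene was at 171 and 128 CPM in NK and 12.5 and 56.4 CPM in CD8 T cells, and its lineage difference in mutants minus WT was not called (FDR 0.261). Gbp7 was called with 1.08 (SE 0.23, FDR 0.0443), a call lost in all 8 fits without 1 library. The proteasome genes Psmb8 and Psmb9, which interferons induce, lay higher in all 4 CD8 libraries with differences under the fold threshold (log2 fold changes -0.67, SE 0.13, FDR 0.0282, and -0.93, SE 0.17, FDR 0.0212).

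Glycolysis and hypoxia genes had mostly small differences in the CD8 direction. Of 25 tested, 3 were called higher in CD8 T cells and 0 higher in NK cells, 22 had a negative log2 fold change and the median was -0.79. Over all genes 1.44% were called higher in CD8 T cells and 6512 of 12929 had a negative log2 fold change, and leaving out 1 library at a time gave 1 to 4 calls in this list. Gapdh lay at 461, 457, 391 and 496 CPM in NK and 1349, 1291, 966 and 1230 CPM in CD8 libraries (log2 fold change -1.40, SE 0.14, FDR 9.23e-04). Hif1a, the hypoxia-inducible factor, was called with -1.61 (SE 0.26, FDR 0.0127), except without CD8 KE 2, and Tpi1 with -1.01 (SE 0.15, FDR 0.00820) in 4 of 8 fits without 1 library. Ldha, lactate dehydrogenase, was higher in every CD8 library, 2721, 2149, 1853 and 2347 CPM against 1212, 1410, 1072 and 1355 CPM, with a difference under the fold threshold (log2 fold change -0.82, SE 0.14, FDR 0.0156). Of 17 immediate early genes tested, which rise with activation and with tissue handling, none was called and the median was -0.09.

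**Figure D4:**
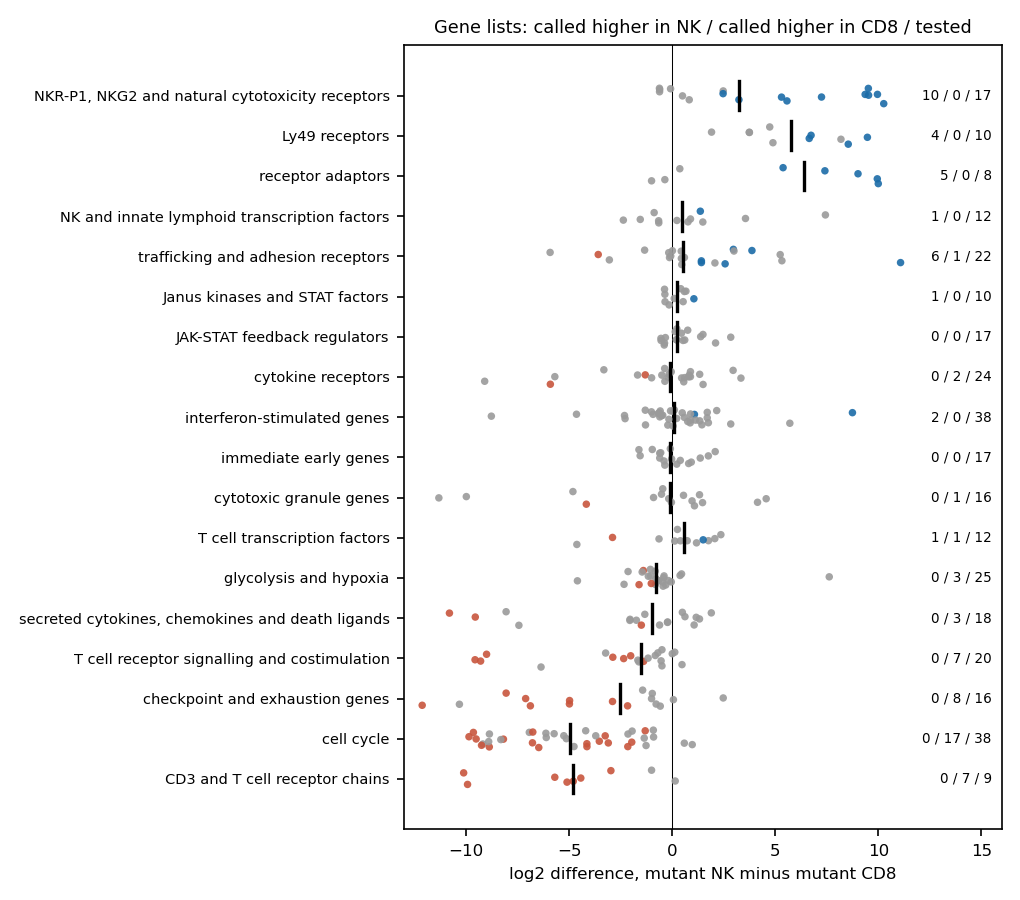
Log2 difference of mutant NK minus mutant CD8 T cells (x axis) for the tested members of 18 gene lists (y axis), with blue for called higher in NK, red for called higher in CD8, grey for not called and a black bar at the list's median. The NK receptor, Ly49 and adaptor lists have medians of 3.24, 5.77 and 6.39, and the cell cycle and CD3 lists medians of -4.95 and -4.8.

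The lineages were also compared within KO and within KE, in a fit with a mean per group. The 2 comparisons share no library, but they share the estimate of spread over all 8, and fits to the 4 libraries of one genotype alone called 46 genes in KO and 51 in KE. In KO, 48 genes (0.371%) were called higher in NK cells and 64 (0.495%) higher in CD8 T cells, and in KE 37 (0.286%) and 45 (0.348%). Of the 112 genes called in KO, 111 had the same sign in KE and 66 (58.9%) were called there too. Of the 82 called in KE, 80 had the same sign in KO, and the same 66 made up 80.5%. Over all 12929 genes the 2 sets of log2 fold changes had a Pearson correlation of 0.316 and a Spearman correlation of 0.294, given as a description, since genes are not independent and most lay near 0. Whether the lineage difference itself differed between KO and KE was tested as an interaction. It was called for 0 genes (0%), with 538 genes at an unadjusted p under 0.05 and a smallest FDR of 0.224, while DESeq2 called 164. The smallest FDR belonged to Atp1b1, a sodium pump subunit, whose NK values of 269, 216, 218 and 253 CPM were alike and whose CD8 values of 5.77, 5.09, 0.167 and 0.0736 CPM separated KO from KE, and to Ccr8, a chemokine receptor of T cells, with 0.619, 0.441, 10.8 and 14.1 CPM in NK libraries, where KE lay above KO, and 281, 228, 205 and 303 CPM in CD8 libraries. Both differed between the lineages in the mutants as a whole (log2 fold changes 7.45, SE 1.05, FDR 0.00616, and -6.34, SE 0.97, FDR 0.00963).

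**Figure D5:**
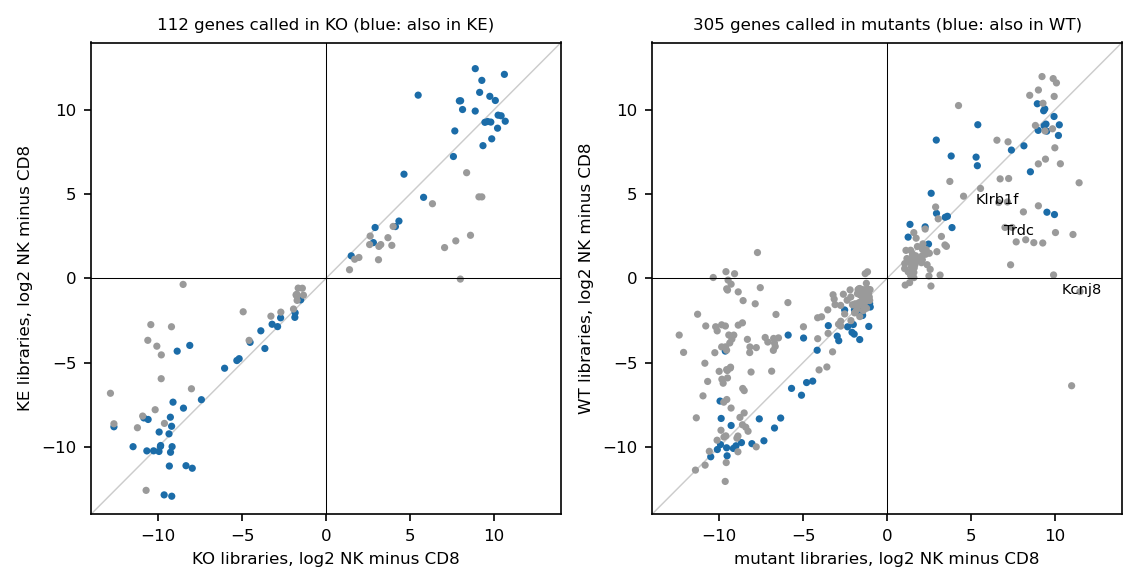
Log2 difference of NK minus CD8 in KO (x axis) and KE (y axis) libraries for the 112 genes called in KO (left), and in mutant (x axis) and WT (y axis) libraries for the 305 genes called in mutants (right), with the diagonal in grey. Blue marks the 66 genes also called in KE and the 76 also called in WT, and 111 of 112 and 294 of 305 points lie in the quadrants of equal sign.

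Read in the same way in the 4 WT libraries, 45 of 13279 genes (0.339%) were called higher in NK cells and 58 (0.437%) higher in CD8 T cells, from 2 libraries against 2. Of the 305 genes called in mutants, 294 had the same sign in WT, 250 reached an absolute log2 fold change of 1 there and 76 (24.9%) were called. Of the 103 called in WT, 101 had the same sign in mutants and 76 (73.8%) were called. WT NK libraries held more myeloid RNA than the mutants, with 19310 and 17460 CPM for the 14 macrophage and monocyte genes. Its part in the differences between mutants and WT was not tested.

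The lineage difference of the mutants differed from that of WT mice in 2 of 13279 genes (0.0151%) by the interaction test over all 12 libraries. DESeq2 called 270, and a fit with the replicate number as a block called 0. Trdc, which encodes the constant part of the δ chain of γδ T cell receptors, was one of the 2 genes. It lay at 238, 312, 176 and 132 CPM in mutant NK and 0.231, 0.0835, 0.250 and 0.221 CPM in mutant CD8 libraries, where 10 counts over the 4 libraries gave a ratio of 1094 (95% interval 595 to 2282). In WT it lay at 112 and 213 CPM in NK and 10.7 and 12.9 CPM in CD8 libraries. NK values thus overlapped between mutants and WT, and the CD8 values did not, being lower in all 4 mutant libraries. The difference of the lineage differences was 6.20 (SE 0.62, FDR 0.0151) on the log2 scale, a fitted value that rests on 1 to 3 counts per mutant CD8 library and is no bound. Klrb1f was the other, with 324 and 453 CPM in WT NK and 29.9 and 21.2 CPM in WT CD8 libraries beside the mutant values given above, and a difference of 5.61 (SE 0.62, FDR 0.0191). Neither gene was called without NK KE 1, NK WT 1, NK WT 2 or CD8 WT 1, in each of which 0 genes were called, and Klrb1f was not called without CD8 KO 1 either (FDR 0.0791). Trdc thus held in 8 and Klrb1f in 7 of the 12 fits that left out 1 library. Ncr1, Cd8b1, Pdcd1 and Birc5 had no called difference between mutants and WT, with FDRs of 0.670, 1.000, 1.000 and 0.253.

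Of the 4 γδ T cell receptor chain genes tested, Trdc was the one called, higher in NK cells (0.92% of all genes). Tcrg-C2, a γ constant region, was at 0.0774, 64.0, 26.2 and 38.7 CPM in NK and 72.2, 137, 660.2 and 166 CPM in CD8 libraries, and Tcrg-C4 at 49.7, 178, 18.2 and 19.7 CPM and 10.2, 10.2, 19.9 and 45.7 CPM. Tcrg-C2 was higher in every CD8 library, Tcrg-C4 overlapped between the cell types, and neither gene was called (log2 fold changes -2.66, SE 1.21, FDR 0.369, and 1.37, SE 1.08, FDR 0.648). The γ constant regions are near-identical and reads that align to several were not counted, so their division is uncertain.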

How the data were processed

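RNA-seq libraries were made from 300 sorted cells each by Smart-seq2, with no molecular identifiers stated. The deposited table holds whole-number counts per gene that the authors made: reads were trimmed with Trimmomatic, aligned with STAR to GRCm38 (mm10) and, when uniquely aligned to exons, counted with summarizeOverlaps. Genes whose normalized counts averaged 10 or more over the libraries of a fit entered edgeR 4.0.16 (R 4.3.3, TMM factors, robust quasi-likelihood test, Benjamini-Hochberg FDR), with genotype as a block for the mutants and a mean per group for KO, KE, WT and the interactions. Alternatives included DESeq2 1.42.0. Counting intervals and floors cover counting error only.

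The comparison and the gene lists were chosen with earlier results of these data known. Genes named were the sort markers, Ncr1 and Tyk2, per direction the 12 called genes without overlap with the smallest FDR and the 5 with the highest CPM, per list up to 6 called members in each direction and up to 3 abundant members not called (any member of lists of up to 12 genes), and up to 5 genes per interaction. Cd244a, Cd27, Cdc20, Fcgr3, Gzmb and Klrc2 and the genes under other observations were chosen after their values were seen. Replicates of a group were distinct libraries, differing by more than sampling noise. Promoter letters were searched in RefSeq sequences, which 9154 of the 12929 tested genes had. Some genes that this rule names are not reported here.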

Additional observations from a re-analysis of the deposited data

Results flagged for a closer look

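In 22 of the 227 sets of 4 mutant libraries examined for the genes named, one library stood apart from the other 3 on the log2 scale, by Dixon's test at the 95% level. That is 9.69%, and chance flags about 1 in 20 such sets. The test sets the gap against the range of the 4 values, so small differences can pass. For Ifngr1 the library flagged held 1612 CPM against 1528 to 1534 CPM in the others.

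Among NK libraries, NK KE 1 stood apart for Ccl4 (61.81 CPM, low), Klrc2 (214.4 CPM, high), Ltb (234.7 CPM, low) and Tpi1 (302.6 CPM). NK KO 1 stood apart for Fcer1g (2901 CPM, high) and Pdcd1 (29.34 CPM, high), and it was the library with 8009 CPM of myeloid transcripts, whose part was not tested. NK KO 2 stood apart for Ccr7 (131.9 CPM, high) and Klra4 (396.7 CPM). NK KE 2 was high for Rgs16 (92.87 CPM), Thy1 (229.5 CPM) and Xcr1 (1.484 CPM).

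Among CD8 libraries, CD8 KE 2 was high for 3 Ly49 genes, Klra1 (7.954 CPM), Klra4 (4.861 CPM) and Klra9 (34.32 CPM), and for Ifngr1 (1612 CPM). CD8 KE 1 stood apart for Irf4 (64.47 CPM, low), Klrb1f (1.752 CPM, high), Klrd1 (1084 CPM, low) and Xcr1 (8.424 CPM, low). CD8 KO 1 was high for Car2 (56.08 CPM) and Cd200 (97.16 CPM), and CD8 KO 2 stood apart for Satb1 (164.9 CPM).

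In 2 genes the lineage difference differed between mutants and WT by the interaction test, by 6.198 for Trdc and by 5.606 for Klrb1f on the log2 scale. Both were lower in all 4 mutant CD8 libraries than in the 2 WT CD8 libraries.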

How the results depend on the processing

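All 305 calls kept their sign under every alternative. With 119 NK and 186 CD8 calls as reported, DESeq2 gave 551 and 695, no filter beyond 1 count 327 and 448, and leaving out 1 library at a time 67 to 100 and 106 to 139. For KO (112 calls) DESeq2 gave 785, no filter 490, a fit to the 4 libraries alone 46 and leaving out 1 library 48 to 102. For KE (82) these were 753, 448, 51 and 28 to 97. For KO minus KE (0) DESeq2 gave 164, no filter 61 and leaving out 1 library 0 to 1. For mutants minus WT (2) they were 270, 180 and 0 to 4. Of the 305 calls, 131 were made in all 8 fits without 1 library. With the replicate block, the calls were 75 and 115, and 0 for mutants minus WT. Differences between replicates 1 and 2 had correlations between the cell types of 0.0403 in KO, 0.00151 in KE and 0.00788 in WT. Such values cannot tell whether same-numbered libraries came from the same mice, which the sources do not state.

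Among the genes named in the text, no called gene changed sign, and 4 genes not called did when 1 library was left out: Lyz2 ranged from -0.7568 (without NK KO 1) to 4.687, Apoe from -1.91 (without NK KO 1) to 3.413, Klrd1 from -0.2637 to 0.01012 and Trbc1 from -0.08637 to 0.8773. The cause of these changes was not tested. Of the 40 named genes not called, 9 were called with DESeq2 and 13 with no filter beyond 1 count. Of the 80 named genes called, 11 lost their call with the replicate block. Counting the calls of each list without 1 library was chosen after seeing the data. Genes at or under 0.276 CPM in a cell type could not be told from 0.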

Other observations

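The genes below are outside the lists and were chosen after their values were seen, all from those called between the mutant cell types. In the NK direction, Car2, a carbonic anhydrase, lay at 924, 894, 1024 and 1008 CPM in NK and 56.1, 17.0, 14.3 and 14.3 CPM in CD8 libraries (log2 fold change 5.41, SE 0.48, FDR 4.12e-04). Txk, a Tec family kinase, was at 796, 656, 733 and 632 CPM against 58.2, 33.3, 38.6 and 126 CPM (log2 fold change 3.54, SE 0.41, FDR 0.00187). Hhex, a homeobox factor, was at 87.0, 122, 188 and 236 CPM against 4.77, 7.26, 33.6 and 17.8 CPM (log2 fold change 3.60, SE 0.40, FDR 0.00156). In each of them the cell types did not overlap. Cd7, an immunoglobulin family receptor, and Cd9, a tetraspanin, were called with 2.30 (SE 0.26, FDR 0.00179) and 2.27 (SE 0.29, FDR 0.00346). Bcl2, which protects lymphocytes from apoptosis, was at 560.5, 809, 732 and 682 CPM against 116, 277, 297 and 184 CPM (log2 fold change 1.70, SE 0.29, FDR 0.0162), and its call was lost without NK KO 2, NK KE 1, NK KE 2 or CD8 KE 2.

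In the CD8 direction, Il1r2, the decoy receptor for interleukin-1, lay at 0.232, 0.294, 0.276 and 0 CPM in NK and 57.6, 122, 273 and 351 CPM in CD8 libraries (log2 fold change -9.62, SE 0.83, FDR 3.61e-04). S100a4, a calcium-binding protein of motile and memory T cells, was at 52.5, 12.1, 22.9 and 28.7 CPM against 429, 381, 389 and 556 CPM (log2 fold change -3.91, SE 0.44, FDR 0.00152). Rgs16, which limits chemokine receptor signals, was at 35.0, 39.6, 40.8 and 92.9 CPM against 712, 400.5, 395 and 787 CPM (log2 fold change -3.50, SE 0.38, FDR 0.00129). The cell types did not overlap in these genes either. The surface protein genes Ly6c2, Ms4a6b and Thy1 were present in both cell types and were called with -2.09 (SE 0.19, FDR 4.29e-04), -1.95 (SE 0.16, FDR 2.83e-04) and -1.35 (SE 0.17, FDR 0.00364).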
